A study of Mus musculus with 12 samples.

Results

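The response of macrophages to a BET bromodomain inhibitor was measured by comparing I-BET151 (iBET) with its solvent DMSO in bone marrow-derived macrophages (BMDMs) that had been given soluble ovalbumin (Ova). The libraries were taken by their labels, as the 3 titled for iBET with Ova and the 3 titled for DMSO with Ova, which are 6 of the 12 libraries in the series. All cells came from wild-type C57BL/6 mice, and either group held 1 library from mouse A, 1 from mouse B and 1 from mouse C. Macrophages were obtained by culture of marrow in M-CSF (100 ng/mL) over 5 days, the medium being changed on day 3. Ova was given for 4 h, with iBET at 5.0 µM or with DMSO, which the labels give as 5%. The labels have drug and Ova added together, whereas the study's text has iBET or DMSO added shortly before Ova, so the order is uncertain and exposure to the drug may have been somewhat longer than 4 h. The study used mice of both sexes, and the labels give neither the sex nor the age of mice A, B and C. Both arms share the antigen. The labels give no DMSO content for the iBET arm, so a difference in solvent cannot be told apart from the drug.

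BET proteins (BRD2, BRD3 and their relatives) bind acetylated lysines on histones through paired bromodomains and help RNA polymerase II to leave its paused state. They do so in part through P-TEFb, the kinase complex of CDK9 and a T-type cyclin, which is held inactive by HEXIM1 and the 7SK RNA. I-BET151 occupies the bromodomain pocket and releases BET proteins from chromatin. In macrophages such drugs are best known for lowering inflammatory genes and genes that depend on large enhancers.

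The 6 Ova libraries held 7816766 to 11632908 counts. The DMSO library of mouse A stood apart: the ribosomal RNA precursor Rn45s took 77.4% of its counts, against 1.41% to 3.15% in the other 5, and left 1768133 counts for all other genes, against 7700448 to 11410071. Rn45s itself (-5.53 on the log2 scale) and Lars2 (-6.94) were called lower with iBET with that library in the fit, and without it they stood at 0.24 and 0.49 (edgeR adjusted p = 0.734 and 0.62). All 12 macrophage markers were measured, with a summed level of 7489 to 8936 CPM (counts scaled to a common library total) with DMSO and 8691 to 10584 CPM with iBET. Dendritic cell markers summed to 0.514 to 0.829 CPM with DMSO and 0.677 to 1.39 CPM with iBET, with Ccr7 at 0 in all 6 libraries. All 8 averaged under 1 CPM, and the 1 tested was called higher (log2 3.38) though its groups overlapped. B cell markers summed to 0.514 to 1.15 CPM with DMSO and 0.226 to 0.463 CPM with iBET, with Pax5 at 0. Markers of T cells and NK cells summed to 1.08 to 3.30 CPM with DMSO and 2.48 to 3.94 CPM with iBET. Cd4 was the highest of them, and Cd3e and Ncr1 were at 0. Neutrophil markers ran from 9.76 to 54.0 CPM with DMSO and from 14.7 to 56.5 CPM with iBET, with overlap of the groups. Markers of stroma and endothelium summed to 20.6 to 21.4 CPM with DMSO and 12.2 to 14.4 CPM with iBET, most of it from Kdr, and their part in the results was not tested.

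Of 11468 genes tested, 3593 (31.3%) were called at an adjusted p under 0.05 in edgeR's quasi-likelihood test with Benjamini-Hochberg adjustment. With iBET 1963 rose (17.1%) and 1630 fell (14.2%), and the median change over all genes tested was 0.02 on the log2 scale. Rises were smaller than falls: 507 genes rose at least 2-fold (4.42%) and 691 fell at least 2-fold (6.03%), and at least 4-fold the counts were 101 and 175. Of the genes called, 98.5% moved in the direction of the fit in all 3 mice. Calls and directions come from the same libraries, so this share is not separate evidence. Over all genes tested the 2 groups of 3 libraries did not overlap for 45.1%. Without the DMSO library of mouse A 3378 genes were called, 1622 higher and 1756 lower, so that 48.0% of calls were rises, against 54.6% with it. These shares are the background for every gene group below. In bulk RNA fewer cells of a type and less RNA per cell cannot be told apart. Since libraries were scaled to TMM-adjusted totals, a shift common to all genes would not be seen.

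**Figure D1:**
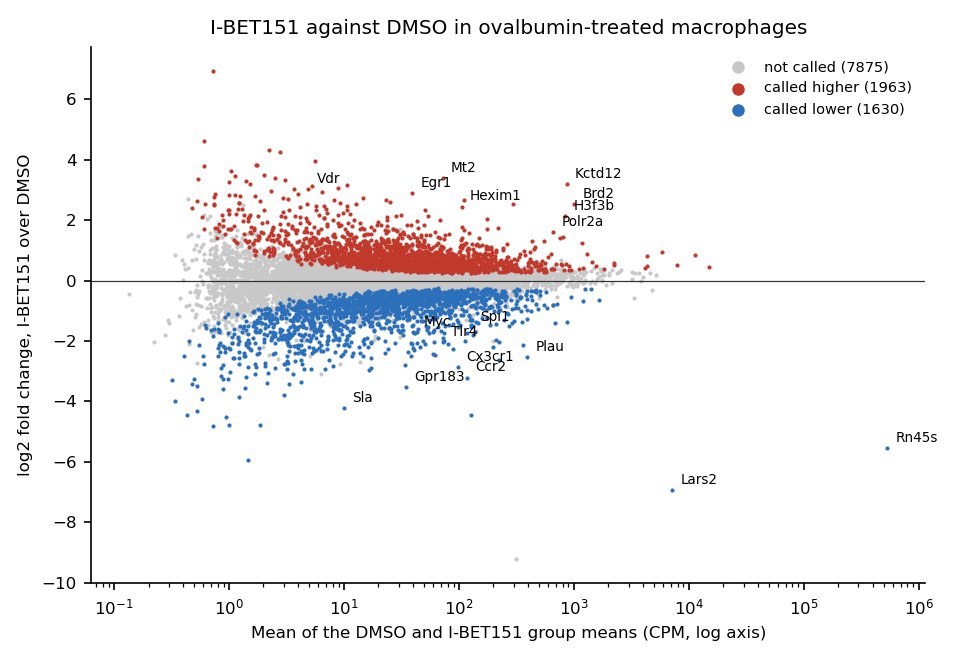
Log2 fold change (iBET over DMSO, vertical axis) against mean level (CPM, log horizontal axis) for the 11468 genes tested, with 1963 called higher in red, 1630 called lower in blue and the rest in grey. Rn45s and Lars2, at the far right below 0, were high in the DMSO library of mouse A alone, whereas Kctd12, Mt2 and Brd2 lie above 2.5 and Sla, Gpr183 and Ccr2 below -3.

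Genes of the machinery that the drug acts on were among those that changed. Values below are CPM in mice A, B and C in that order. Brd2, a BET protein (chr17:34112023-34122634), was at 349, 294 and 247 with DMSO and at 1692, 1703 and 1727 with iBET. The 3 iBET libraries were nearly equal and lay above every DMSO library, with a log2 fold change of 2.53 ± 0.13 (SE), edgeR adjusted p = 1.96e-07. Brd2 overlaps H2-DMa on the other strand, and whether counting used strand was not stated. Kctd12, Mt2, Cx3cr1, Abhd15, Hspa1a and Fam83f, described below, also overlap other annotated genes. Hexim1 (chr11:103116231-103119725), the inhibitor of P-TEFb and a single-exon gene, was at 39.5, 34.6 and 26.4 with DMSO and at 176, 186 and 174 with iBET. It rose 5.44-fold without overlap of the groups (log2 2.44 ± 0.18 (SE), edgeR adjusted p = 1.88e-06). Brd3, the sister BET protein, was at 68.8, 40.5 and 43.6 with DMSO and at 35.6, 47.8 and 40.7 with iBET; these ranges overlapped and it was not called (log2 -0.26 ± 0.24 (SE), edgeR adjusted p = 0.454; without mouse A the log2 change was 0.046).

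Of 21 genes tested for BET proteins and regulators of P-TEFb, 6 were called higher and 1 lower, with a median of 0.21 against 0.02 over all genes. Mepce, which caps the 7SK RNA, rose by 1.04 on the log2 scale. Ccnt2, a T-type cyclin, rose by 0.81, and the elongation factors Ell and Aff4 by 0.75 and 0.77 (edgeR adjusted p from 3.1e-05 to 0.000978 for the 4). Cdk9, the kinase itself, was at 80.6, 61.5 and 68.3 with DMSO and at 82.3, 80.7 and 78.1 with iBET, and the groups overlapped. Ccnt1, the other T-type cyclin, missed the threshold (log2 0.34 ± 0.12 (SE), edgeR adjusted p = 0.0512) and passed it with the mouse as a block (adjusted p = 0.0282). Nelfe, a subunit of the pausing factor NELF, was the 1 member lower (log2 -0.43 ± 0.14 (SE), edgeR adjusted p = 0.035), and that call was lost in 7 of 9 fits that left out a library or a mouse, with adjusted p up to 0.166 without mouse C. Larp7, a 7SK-binding protein, had its highest value in the DMSO library of mouse A (81.7, 24.3 and 23.05 with DMSO, 16.1, 17.8 and 21.9 with iBET) and was not called.

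Polr2a, the largest subunit of RNA polymerase II, is often taken as an unchanging control, yet it was at 306, 326 and 349.6 CPM with DMSO and at 973, 1041 and 992 with iBET. It rose 3.06-fold, with narrow spread in both groups (log2 1.61 ± 0.09 (SE), edgeR adjusted p = 2.36e-07). Of 14 usual reference genes 4 were called higher and none lower. Without the DMSO library of mouse A, 1 was left, Polr2a. Actb was among the others (log2 0.47 ± 0.13 (SE), edgeR adjusted p = 0.0169), and its call was lost in 5 of 9 fits that left out a library or a mouse, with adjusted p = 0.106 without that library and up to 0.119 without mouse B.

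Myc and the factors around it moved in opposite directions. Myc was at 64.7, 61.5 and 65.7 CPM with DMSO and at 21.3, 23.2 and 13.5 with iBET, a 3.297-fold fall without overlap (log2 -1.72 ± 0.24 (SE), edgeR adjusted p = 0.000235). Tfap4, a transcription factor known as a target of Myc, was at 8.22, 9.74 and 9.53 with DMSO and at 0.926, 1.54 and 1.24 with iBET. It fell 7.63-fold (log2 -2.93 ± 0.24 (SE), edgeR adjusted p = 4.06e-06). Mxd1, which competes with Myc for its partner Max, was at 9.76, 9.05 and 9.95 with DMSO and at 36.96, 38.9 and 39.03 with iBET, and so rose 4.01-fold (log2 2.003 ± 0.11 (SE), edgeR adjusted p = 2.36e-07). Mlxip, the glucose-sensing factor MondoA, rose by 0.67 on the log2 scale. In the Myc network 4 of 12 genes were higher and 3 lower.

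**Figure D2:**
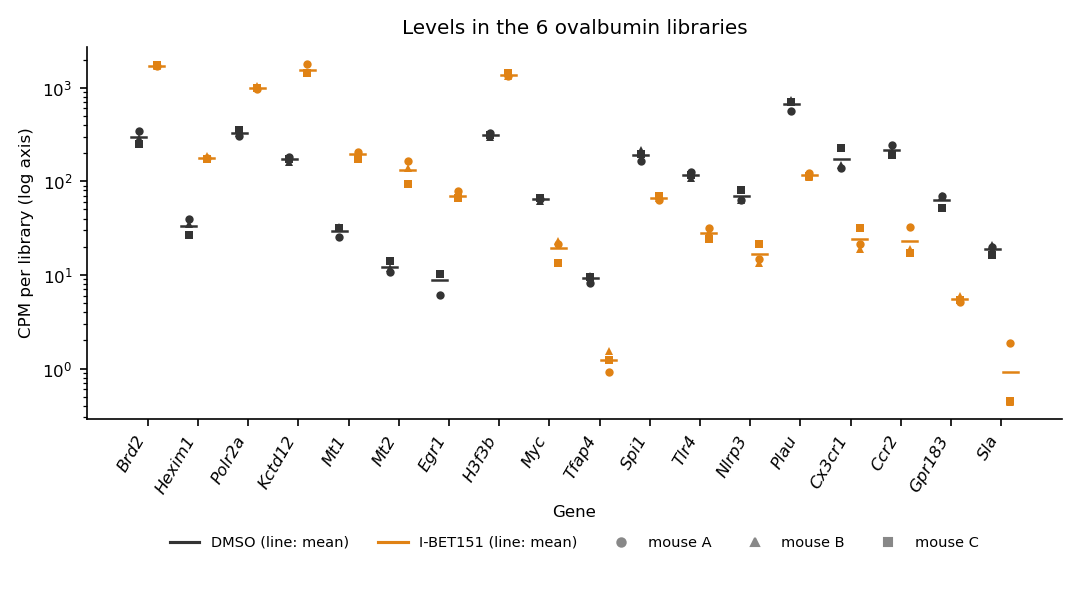
Level of 18 genes in each of the 6 Ova libraries (CPM, log axis), DMSO in black and iBET in orange, with a symbol for each mouse and a line at the group mean. From Brd2 to H3f3b every iBET library lies above every DMSO library, and from Myc to Sla every iBET library lies below.

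Among the largest rises, Kctd12, an auxiliary subunit of the GABA-B receptor, was at 181, 161 and 173 CPM with DMSO and at 1796, 1463 and 1424 with iBET. It is a single-exon gene (chr14:102976581-102982637), rose 9.12-fold and had the smallest adjusted p of the genes named here (log2 3.19 ± 0.12 (SE), edgeR adjusted p = 3.72e-08). Mir5130 lies within it on the same strand, and its rise (3.15) cannot be told from that of its host. Vdr, the vitamin D receptor, was at 1.54, 1.23 and 0.746 with DMSO and at 7.56, 9.705 and 8.57 with iBET. Its groups were far apart though its level was low (log2 3.02 ± 0.31 (SE), edgeR adjusted p = 2.33e-05). The RNA-editing enzyme Adarb1 (3.13), the RNA-binding protein Arid5a (3.06), the Wnt pathway receptor Lgr4 (2.93) and Abhd15 (2.67) also rose on the log2 scale, all from group means under 3 CPM with DMSO. Bzrap1 and Gm7694 rose by 2.66 and 2.57. Sat1, which acetylates polyamines for export, rose 5.83-fold, from 87.7 ± 17.4 to 506 ± 34.3 CPM (SD, n = 3), and Odc1, which makes them, rose 2.07-fold.

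The metallothioneins, small cysteine-rich proteins that bind zinc and copper, rose together. Mt1 was at 25.2, 32.1 and 31.7 CPM with DMSO and at 208, 201 and 171 with iBET, and Mt2 was at 10.8, 11.96 and 14.01 with DMSO and at 166, 138 and 93.3 with iBET. Both groups were well apart for both genes, with log2 fold changes of 2.68 ± 0.16 (SE), edgeR adjusted p = 4.4e-07 for Mt1 and 3.40 ± 0.25 (SE), edgeR adjusted p = 3.59e-06 for Mt2. Slc30a1, the zinc exporter of the cell surface, rose 1.79-fold. In the whole list of 20 metallothionein and zinc genes 7 were higher and 2 lower, and without the DMSO library of mouse A 5 were higher and 4 lower. The proximal promoters of the pair are shown because both genes rose and because metallothionein promoters are known for metal response elements. Each window runs from 250 bases before to 50 bases after the RefSeq start on GRCm38.p6, both on the plus strand, Mt1 at chr8:94178839-94179138 and Mt2 at chr8:94172368-94172667. Capitals mark matches to the metal response element core, searched as TGCACNC or TGCGCNC on both strands.
Mt1: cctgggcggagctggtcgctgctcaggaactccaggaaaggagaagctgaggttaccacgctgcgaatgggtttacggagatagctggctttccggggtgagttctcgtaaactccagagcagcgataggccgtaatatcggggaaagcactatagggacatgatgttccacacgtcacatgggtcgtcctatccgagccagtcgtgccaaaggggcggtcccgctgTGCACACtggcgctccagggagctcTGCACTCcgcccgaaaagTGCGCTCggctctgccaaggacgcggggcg
Mt2: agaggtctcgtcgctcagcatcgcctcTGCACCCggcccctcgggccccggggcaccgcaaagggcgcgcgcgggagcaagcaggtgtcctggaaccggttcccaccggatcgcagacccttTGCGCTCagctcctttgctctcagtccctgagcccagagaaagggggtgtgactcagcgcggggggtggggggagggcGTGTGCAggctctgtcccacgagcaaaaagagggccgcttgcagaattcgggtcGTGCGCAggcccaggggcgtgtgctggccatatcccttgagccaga
The Mt1 window held 3 matches and the Mt2 window 4, none overlapping. Of 32851 RefSeq promoter windows, 25.7% held at least 1 match, 1.97% at least 3 and 0.517% at least 4. A match is a description of the letters and was not tested as a site of binding.

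Other stress genes were higher as well. Of 23 genes of the Nrf2 and oxidative stress list 9 rose and 2 fell, with a median of 0.28. Hmox1, which degrades haem, was at 403, 493 and 421 CPM with DMSO and at 1082, 1307 and 1165 with iBET (log2 1.43 ± 0.15 (SE), edgeR adjusted p = 2.88e-05), and Gclc, the limiting enzyme of glutathione synthesis, rose 2.91-fold. Srxn1, which repairs peroxiredoxins, rose 2.301-fold. Of 19 genes of the Atf4 response 6 rose and none fell, among them the amino acid transporter Slc7a5 (1.60) and Sesn2 (1.52), an inhibitor of mTORC1. Of 20 heat shock and chaperone genes 6 rose and 1 fell (3 fell with the mouse as a block). The inducible Hsp70 gene Hspa1a was at 8.22, 6.98 and 6.63 with DMSO and at 46.5, 39.3 and 42.4 with iBET; its near-identical copy Hspa1b rose 3.61-fold, and reads of the pair may have been split between them. The endoplasmic reticulum chaperone Hspa5 rose from 701 ± 56.2 to 1677 ± 51.1 CPM (SD, n = 3).

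Immediate early genes, most of which code for transcription factors induced within minutes of a stimulus, went both ways. Of 31 tested, 13 rose and 5 fell, and 10 rose at least 2-fold (32.3%, against 4.42% of all genes). Egr1 was at 6.16, 10.2 and 10.1 CPM with DMSO and at 77.9, 65.5 and 66.1 with iBET (log2 2.89 ± 0.20 (SE), edgeR adjusted p = 1.32e-06). Ier3 (2.72) and the nuclear receptor Nr4a2 (1.87) also rose. Their relatives did not follow: Egr2 was at 20.5, 18.8 and 9.37 with DMSO and at 4.17, 2.65 and 1.24 with iBET, and Fos was at 292, 338 and 269 with DMSO and at 193, 159 and 109 with iBET. Both fell without overlap (log2 -2.49 ± 0.41 (SE), edgeR adjusted p = 0.000808 for Egr2, and -0.96 ± 0.22 (SE), edgeR adjusted p = 0.00557 for Fos), and both calls were lost when mouse B was left out (adjusted p = 0.0609 and 0.104). Dusp6, the phosphatase that ends ERK signalling, rose 2.66-fold, and Spred1, an inhibitor of Ras, fell 1.85-fold.

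Receptors through which macrophages sense chemokines, complement and lipids had the highest share of falls among the lists with 12 or more genes tested. Of 31 such G protein-coupled receptors 21 were called lower and 2 higher, against 14.2% lower and 17.1% higher over all genes, 18 fell at least 2-fold and the median was -1.46. Without the DMSO library of mouse A 20 were lower and 1 higher. In the 3 mice the median change of the list was -1.31, -1.42 and -1.60. Gpr183, the oxysterol receptor EBI2 (chr14:121952551-121965195), was at 69.3, 69.5 and 51.7 CPM with DMSO and at 5.09, 5.96 and 5.42 with iBET. It fell 11.5-fold without overlap (log2 -3.53 ± 0.22 (SE), edgeR adjusted p = 4.7e-07). Ccr2, the receptor for Ccl2 that brings monocytes out of the marrow (chr9:124101950-124113557), was at 242, 209.6 and 192 with DMSO and at 32.9, 18.7 and 17.3 with iBET. Cx3cr1, the fractalkine receptor, was at 139.7, 151 and 227 with DMSO and at 21.5, 18.9 and 31.8 with iBET. Every iBET library lay far below every DMSO library for both (log2 -3.21 ± 0.23 (SE), edgeR adjusted p = 2.19e-06 for Ccr2, and -2.85 ± 0.31 (SE), edgeR adjusted p = 5.72e-05 for Cx3cr1). Ccr1, which lies near Ccr2 on chromosome 9 (chr9:123962124-123968692), fell 7.48-fold. The complement receptors parted: C5ar2, the non-signalling receptor of C5a, fell 3.996-fold (log2 -1.999 ± 0.20 (SE), edgeR adjusted p = 2.1e-05), whereas C5ar1, the signalling one, was at 334, 411 and 404 with DMSO and at 613, 548 and 451 with iBET and was called higher (log2 0.49 ± 0.14 (SE), edgeR adjusted p = 0.0173). The other member called higher was the nucleotide receptor P2ry2 (log2 0.53 ± 0.17 (SE), edgeR adjusted p = 0.0334). Those calls of C5ar1 and P2ry2 were lost in 5 and 6 of the 9 fits that left out a library or a mouse, with adjusted p up to 0.134 without mouse B for C5ar1 and 0.153 without the iBET library of mouse A for P2ry2. Of 18 genes tested among regulators of G protein signalling 6 fell and none rose.

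**Figure D3:**
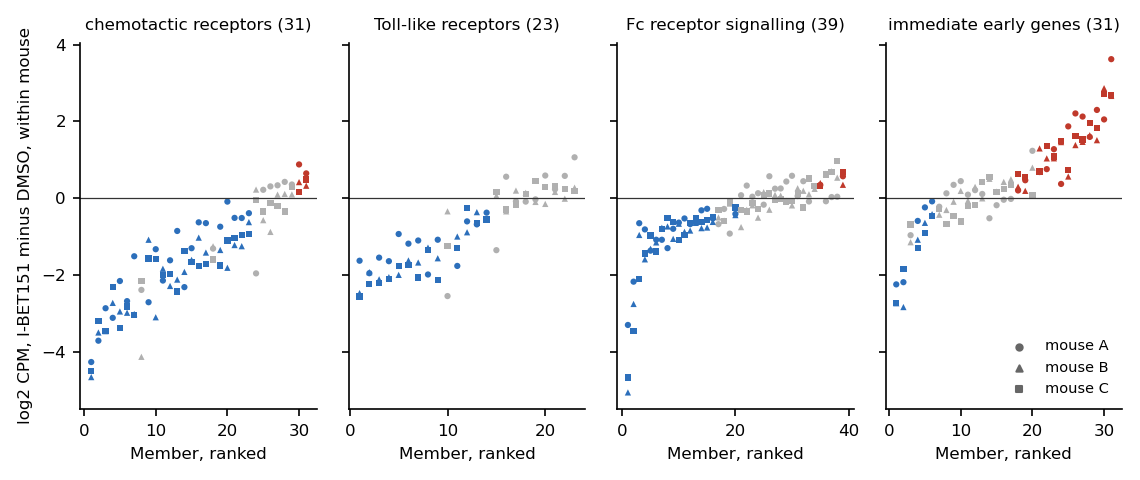
Change within each mouse (log2 CPM with iBET minus log2 CPM with DMSO) for the members of 4 gene lists, ranked by the fitted change, with called members in red or blue and others in grey. Of 31 chemotactic receptors 21 are called lower, with the blue points of the 3 mice below 0, whereas 13 of 31 immediate early genes are called higher.

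Pattern receptors fell too. Of 23 Toll-like receptors and adaptors 13 fell and none rose, 10 of them at least 2-fold, with a median of -0.59. Tlr4, the receptor for lipopolysaccharide, was at 125, 109 and 117 CPM with DMSO and at 31.9, 28.6 and 24.5 with iBET (log2 -2.04 ± 0.11 (SE), edgeR adjusted p = 2.4e-07). Tlr13, which senses bacterial ribosomal RNA, was at 283, 382 and 323 with DMSO and at 91.1, 68.4 and 54.4 with iBET, and Cd180, a homologue of Tlr4 that lacks its signalling domain, fell 3.87-fold. For these genes the lowest DMSO library was more than 2-fold above the highest iBET library. Of 19 inflammasome and pyroptosis genes 8 fell and 4 rose. Nlrp3 was at 62.7, 63.8 and 81.6 with DMSO and at 14.7, 13.5 and 21.4 with iBET (log2 -2.08 ± 0.20 (SE), edgeR adjusted p = 1.27e-05), and the adjacent copies Nlrp1a and Nlrp1b fell 2.86-fold and 2.94-fold. Naip2 and Naip5, which detect bacterial secretion systems and flagellin, rose 1.47-fold and 1.85-fold, and Ripk2, the kinase below the NOD receptors, 2.05-fold. In the NADPH oxidase list of 7 genes 4 fell, including the cytosolic subunits Ncf1 (-1.01) and Ncf4 (-0.60).

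Interferon-stimulated genes also fell: 23 of 51 were lower and 3 higher, 11 fell at least 2-fold, and the median was -0.55. Ifit3 was at 147, 77.98 and 79 CPM with DMSO and at 20.1, 22.5 and 12.9 with iBET, and its neighbouring copy Ifit3b was at 97.1, 46 and 53.7 with DMSO and at 12.5, 14.1 and 6.66 with iBET. The DMSO library of mouse A was the highest for both, and the groups did not overlap (log2 -2.42 ± 0.48 (SE), edgeR adjusted p = 0.00308 for Ifit3, and -2.51 ± 0.56 (SE), edgeR adjusted p = 0.00596 for Ifit3b). Without mouse B the call of Ifit3b was lost (edgeR adjusted p = 0.0561). Reads of the 2 copies may have been split or shared between them, so their falls may not be separate. Slfn8, a member of the Schlafen family, fell 4.12-fold. Promoter windows of the 2 Ifit3 copies, on the plus strand at chr19:34583279-34583578 for Ifit3 and chr19:34607707-34608006 for Ifit3b (RefSeq, GRCm38.p6), are shown because both copies fell. Capitals mark matches on either strand to a core of the interferon-stimulated response element, searched as GAAA, any 2 bases and GAAA.
Ifit3: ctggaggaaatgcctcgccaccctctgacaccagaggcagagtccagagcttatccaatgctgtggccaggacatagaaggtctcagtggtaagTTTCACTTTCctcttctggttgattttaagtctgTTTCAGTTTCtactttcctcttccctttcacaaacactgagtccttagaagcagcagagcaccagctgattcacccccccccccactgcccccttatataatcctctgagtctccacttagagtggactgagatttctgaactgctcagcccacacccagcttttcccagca
Ifit3b: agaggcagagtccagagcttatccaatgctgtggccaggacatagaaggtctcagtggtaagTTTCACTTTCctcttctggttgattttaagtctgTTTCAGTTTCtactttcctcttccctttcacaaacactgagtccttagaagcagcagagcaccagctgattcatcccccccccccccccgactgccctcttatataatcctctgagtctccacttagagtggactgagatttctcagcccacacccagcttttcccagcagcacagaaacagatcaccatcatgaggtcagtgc
Each window held 2 matches, at the same distance from each other and both on the minus strand. Over all windows 3.44% held at least 1 match and 0.225% at least 2.

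Fc receptors bind the IgG of immune complexes, and the kinases and phosphatases next to them set the strength of the signal. Of 39 such genes 17 fell and 2 rose, with a median of -0.37. The rises were 4 without the DMSO library of mouse A and 6 with the mouse as a block. The largest fall was that of Sla, the Src-like adaptor that lowers receptor levels at the cell surface (chr15:66780819-66831829). It was at 20.03, 20.9 and 16.2 CPM with DMSO and at 1.85, 0.441 and 0.451 with iBET. All 3 iBET libraries were under 2 CPM and all 3 DMSO libraries over 16 (log2 -4.23 ± 0.40 (SE), edgeR adjusted p = 1.25e-05). Fgr, a Src family kinase of myeloid cells, was at 9.76, 13.8 and 13.1 with DMSO and at 2.01, 1.87 and 1.02 with iBET (log2 -2.92 ± 0.27 (SE), edgeR adjusted p = 9.89e-06). Further along the pathway the kinases Syk (-0.61) and Btk (-0.83), the adaptors Blnk (-1.205), Lcp2 (-0.73) and Dok2 (-1.22) and the lipid phosphatase Inppl1 (-1.30) fell, with Syk missing the threshold without mouse B (edgeR adjusted p = 0.0644).

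For Fcgr1, Fcgr2b and Fcgr3, the Fcγ receptors given here, the fitted changes were under 2-fold. Fcgr3, an activating receptor, was at 305, 273 and 269 CPM with DMSO and at 211, 177 and 191 with iBET. It fell 1.46-fold (log2 -0.54 ± 0.13 (SE), edgeR adjusted p = 0.00657), a call lost without mouse B or without mouse C (adjusted p = 0.0627 and 0.0708). Fcgr1, the high-affinity receptor, was at 178, 187 and 128 with DMSO and at 146, 124 and 84.7 with iBET. The groups overlapped and it was not called (log2 -0.47 ± 0.28 (SE), edgeR adjusted p = 0.23), but within each mouse it was lower with iBET, and the fit with the mouse as a block called it (adjusted p = 0.0044). Fcgr2b, the inhibitory receptor, was at 20.03, 13.7 and 16.1 with DMSO and at 12.4, 9.59 and 12.9 with iBET (log2 -0.47 ± 0.19 (SE), edgeR adjusted p = 0.0871). Fcer1g, the signalling chain that the activating receptors share, was at 457, 518 and 470.4 with DMSO and at 619, 591 and 397 with iBET. Its groups overlapped (log2 0.15 ± 0.20 (SE), edgeR adjusted p = 0.604), and its direction turned without mouse A. The phosphatase Inpp5d was not called either (log2 -0.13 ± 0.14 (SE), edgeR adjusted p = 0.515). The 2 members called higher were Fcgrt, the neonatal Fc receptor that recycles IgG (log2 0.55 ± 0.15 (SE), edgeR adjusted p = 0.0171), and the ubiquitin ligase Cbl (log2 0.35 ± 0.10 (SE), edgeR adjusted p = 0.0184). Those calls were lost in 4 and 5 of the 9 fits that left out a library or a mouse, with adjusted p up to 0.11 without mouse B for Fcgrt and 0.137 without mouse C for Cbl.

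**Figure D4:**
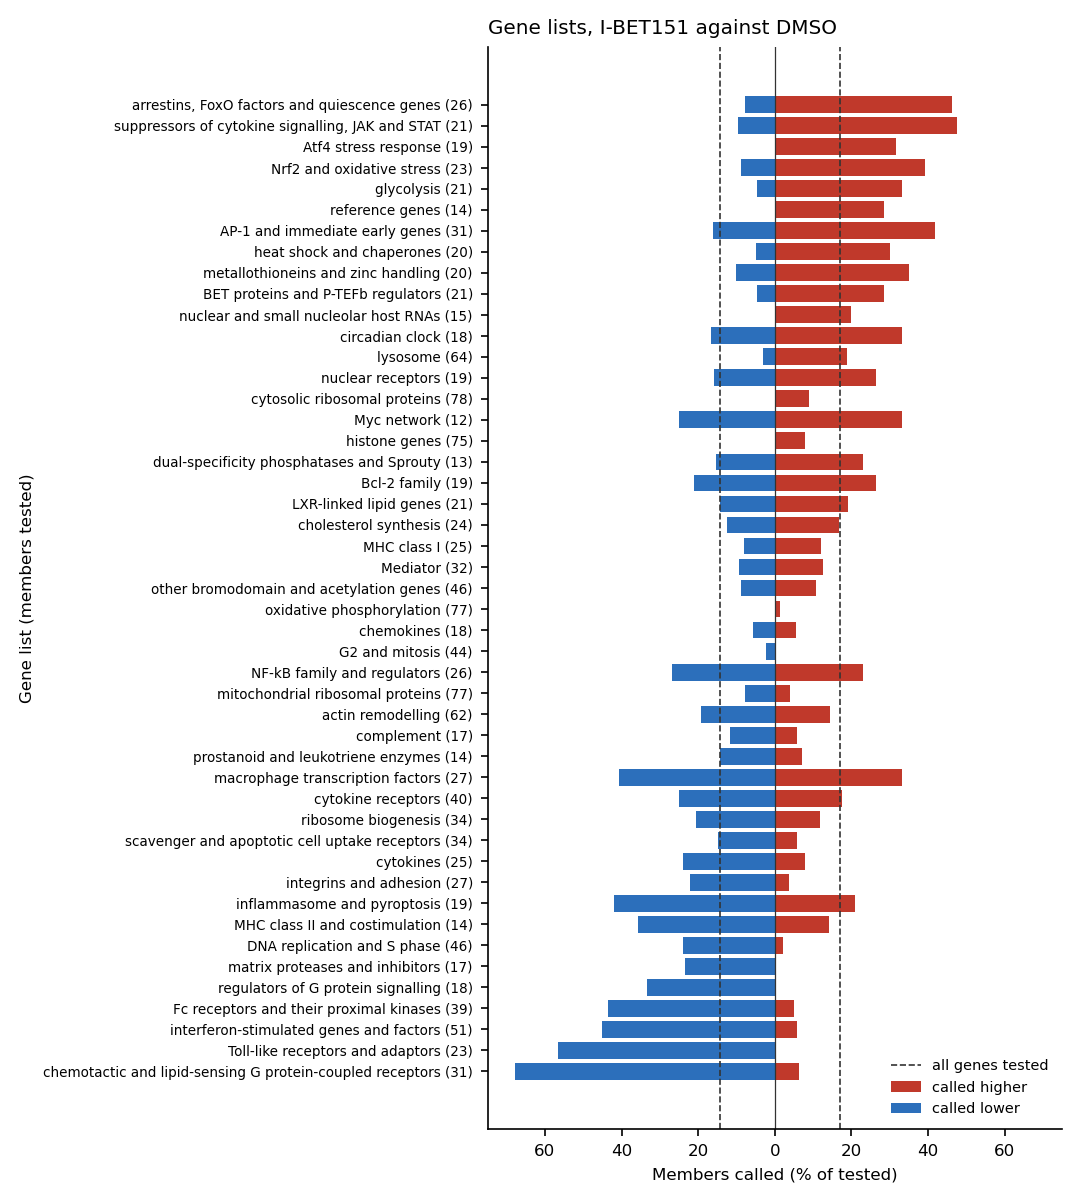
Share of the tested members of each gene list that was called higher (red, to the right) or lower (blue, to the left) with iBET, for lists with at least 12 genes tested, with dashed lines at the share over all 11468 genes (17.1% higher, 14.2% lower). Chemotactic receptors, Toll-like receptors, interferon-stimulated genes and Fc receptor genes reach farthest to the left, and quiescence, cytokine signalling, Nrf2 and immediate early genes farthest to the right.

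Of 25 cytokine genes tested 6 fell (24%, against 14.2% of all genes) and 2 rose (8%, against 17.1%), with a median of -0.40. Without the DMSO library of mouse A 8 fell and 1 rose, and with the mouse as a block 9 fell and 3 rose. Of 18 chemokines 1 fell and 1 rose. Tnf was at 38.01, 47.3 and 53.6 CPM with DMSO and at 70.5, 70.1 and 71.3 with iBET and rose 1.502-fold (log2 0.59 ± 0.16 (SE), edgeR adjusted p = 0.0151), a call lost without the DMSO library of mouse A or without mouse B (adjusted p = 0.0721 and 0.16). Tgfb1 rose 1.65-fold, whereas Il16 (-2.01) and Tnfsf12 (-1.03) fell. The chemokine that rose was Ccl7 (log2 1.48 ± 0.32 (SE), edgeR adjusted p = 0.00489, adjusted p = 0.115 without mouse A), and the one that fell was Cxcl16 (log2 -0.91 ± 0.16 (SE), edgeR adjusted p = 0.000857, adjusted p = 0.051 without mouse B). With the mouse as a block 4 chemokines rose and 2 fell. Receptors for cytokines divided: Il7r fell 3.49-fold from 208 ± 31.1 CPM (SD, n = 3), Il21r fell 3.099-fold and Il18rap 5.32-fold, while Lifr rose 2.86-fold, Il17ra 2.94-fold and Il1rap 1.81-fold. Of 40 tested, 10 fell and 7 rose. In the list of JAK, STAT and SOCS genes, which carry and end cytokine signals, 10 of 21 rose and 2 fell. Around NF-kB, Traf1 (-1.94) and Tnip3 (-1.23) fell while the atypical inhibitor Nfkbiz (1.29) and the classical inhibitor Nfkbie (0.74) rose, and 6 of 26 members were higher against 7 lower.

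Of 27 transcription factors that shape macrophages 11 fell and 9 rose, so that 20 of 27 were called, against 31.3% of all genes. Spi1, which codes for PU.1, the master factor of the lineage, was at 165, 214 and 196 CPM with DMSO and at 62.7, 66.3 and 69.2 with iBET. It fell 2.92-fold, with the groups far apart (log2 -1.54 ± 0.12 (SE), edgeR adjusted p = 2.34e-06). Mitf (-1.47) and Zeb2 (-1.39) fell as well. Id1, an inhibitor of helix-loop-helix factors, rose by 1.36 on the log2 scale. In a list of 19 nuclear receptors and other ligand-bound factors 5 rose and 3 fell (5 fell with the mouse as a block). Ppard (1.41) and the aryl hydrocarbon receptor Ahr (1.34), which belongs to another protein family, rose beside Vdr, against Pparg (-2.23) and Rarg (-1.61). Several genes of secretion, fusion and signalling were among the largest falls. Plau, the urokinase that cleaves plasminogen, was at 561, 737 and 707 with DMSO and at 124, 111 and 115 with iBET (log2 -2.52 ± 0.12 (SE), edgeR adjusted p = 1.39e-07). Dcstamp, needed for the fusion of macrophages, fell 7.14-fold, Sema4d 6.11-fold, the phosphatase Ptpro 6.89-fold, the Ras activator Rasgrp3 7.74-fold and Havcr2 (Tim-3) 3.97-fold. Tmem26 and Fam83f fell 5.93-fold and 5.696-fold.

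For genes of cell division the calls depended on whether libraries were paired by mouse. Of 44 genes of G2 and mitosis 1 was called lower and none higher, although their median was -0.86, against 0.02 over all genes. With the mouse as a block 34 of the 44 were called lower, against 17.9% of all genes lower and 20.4% higher in that fit. Without the DMSO library of mouse A and without the block none was called. Within mouse A, B and C the median change was -0.94, -0.66 and -0.81. The same genes lay higher in mouse C than in mice A and B under either treatment, so that the level in mouse C with iBET was above that in mice A and B with DMSO. Bub1b, the mitotic checkpoint kinase that was called, was at 44.7, 33.9 and 63.8 CPM with DMSO and at 10.4, 11.1 and 30.1 with iBET (log2 -1.48 ± 0.49 (SE), edgeR adjusted p = 0.0407), with adjusted p = 2.95e-05 under the block. Its call was lost in 7 of 9 fits that left out a library or a mouse, with adjusted p up to 0.287 without mouse A. For DNA replication and S phase 11 of 46 fell and 1 rose, and 24 fell under the block. Cdt1, which licenses replication origins, fell 2.43-fold (log2 -1.28 ± 0.11 (SE), edgeR adjusted p = 8.13e-06), and E2f2 was at 17.5, 17.3 and 32 with DMSO and at 3.09, 4.19 and 7.67 with iBET. E2f2 fell (log2 -2.21 ± 0.42 (SE), edgeR adjusted p = 0.00213), a call lost without mouse B (adjusted p = 0.0503). Ccnd1, cyclin D1, fell 2.598-fold.

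**Figure D5:**
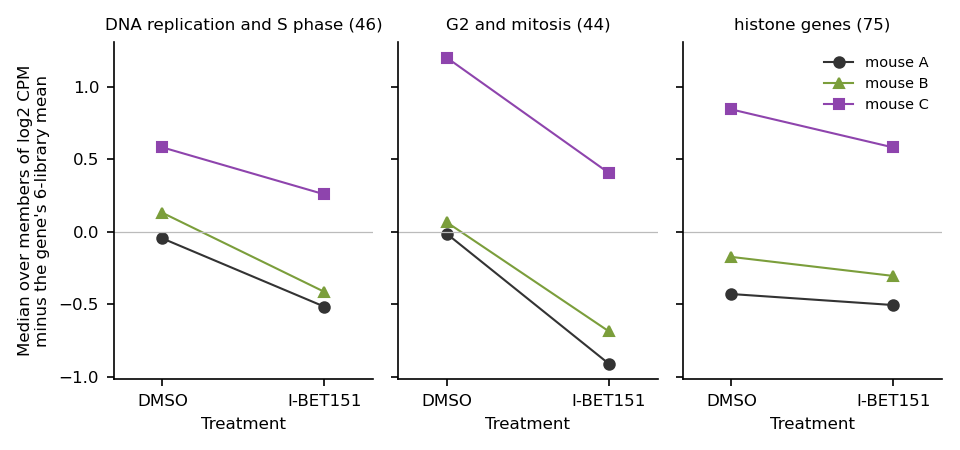
Median level of the genes of DNA replication, of G2 and mitosis and of histones in each library (log2 CPM minus each gene's mean over the 6 libraries), with DMSO and iBET joined within each mouse. In all 3 panels mouse C lies above mice A and B, and for G2 and mitosis each line falls, from -0.02, 0.06 and 1.198 with DMSO to -0.91, -0.69 and 0.40 with iBET.

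Genes linked to rest from the cycle rose more often than all genes. In the list of arrestins, FoxO factors and quiescence genes 12 of 26 rose and 2 fell (4 fell with the mouse as a block). Txnip, an arrestin that holds back glucose uptake, was at 351, 437 and 445 CPM with DMSO and at 1188, 1106 and 1012 with iBET (log2 1.42 ± 0.13 (SE), edgeR adjusted p = 8.13e-06). Sesn3, a target of FoxO factors, rose 5.86-fold and the antiproliferative Tob1 2.94-fold. Of 75 histone genes 6 rose, and the leading members were not the replication-dependent kind alone. H3f3b, which codes for the replacement histone H3.3, was at 326, 301 and 316 with DMSO and at 1333, 1342 and 1435 with iBET. It rose with little spread (log2 2.12 ± 0.10 (SE), edgeR adjusted p = 1.39e-07), as did the linker histone H1f0 (2.001) and Hist1h2bc (2.04). No histone gene was called lower, but 14 were with the mouse as a block, against 10 higher. Slbp, which binds the stem-loop of replication-dependent histone mRNA, rose 1.67-fold. Of 18 clock genes 6 rose and 3 fell, and Nfil3 (2.35), Cry1 (1.08) and Cry2 (1.41) were among those that rose.

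Few genes of respiration and of the ribosome were called. Of 77 genes of oxidative phosphorylation 1 was called, of 78 cytosolic ribosomal proteins 7 rose and none fell (1 rose without the DMSO library of mouse A), and of 77 mitochondrial ribosomal proteins 3 rose and 6 fell. Other metabolic groups depended on the fit. In glycolysis 7 of 21 rose and 1 fell, and 13 rose with the mouse as a block but 3 without the DMSO library of mouse A, where 14.05% of all genes rose. Of 64 lysosomal genes 12 rose and 2 fell, with none past 2-fold, and without the DMSO library of mouse A 6 rose and 3 fell. Calr, an abundant chaperone of the endoplasmic reticulum, rose 1.74-fold from 3152 ± 229.9 CPM (SD, n = 3).

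The share of genes called varied with how a gene is built and how much of it there was. Of 208 protein-coding genes outside the histone clusters whose longest annotated transcript has a single exon, 24.04% rose and 9.62% fell, and 12.5% rose at least 2-fold, against 4.42% of all genes. With the clustered histones there were 268 such genes, of which 19.0% rose and 7.46% fell, and over all 515 single-exon genes, non-coding ones included, 12.8% rose and 6.41% fell, so that the share of rises above 17.1% depended on which genes were taken. Among protein-coding genes with 5 or more exons 18.1% rose and 14.5% fell. Hexim1 and Kctd12 are among the single-exon genes. By mean level over the 12 libraries, 12.3% of the 2867 lowest genes fell at least 2-fold, against 2.69% of the 2867 highest, and the lowest genes have the fewest counts behind each fold change. The nearest tested protein-coding neighbour of a gene that fell at least 2-fold had itself fallen 2-fold in 69 of 648 cases (10.6%), against 5.59% for all genes. For genes that rose at least 2-fold the nearest neighbour had itself risen 2-fold in 33 of 499 cases (6.61%), against 4.61% for all genes. These shares are descriptions, and neighbours of common descent such as Nlrp1a and Nlrp1b, which lie 8398 bases apart, are counted in them.

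The other 6 libraries compare the same drug (3 libraries) with DMSO (3 libraries) in cells given ovalbumin in immune complexes (IC), from the same mice and with no library in common. There the log2 fold changes were 2.82 for Brd2, 2.496 for Hexim1, 3.47 for Kctd12 and 3.70 for Mt2. For genes that fell they were -3.78 for Sla, -3.59 for Gpr183, -2.60 for Ccr2, -1.45 for Tlr4 and -2.27 for Myc. In edgeR's test of the difference between the 2 drug effects no gene of 11468 was called, and 292 had an unadjusted p under 0.05. That test does not show that the effects were equal.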

How the data were processed

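RNA was taken from BMDM cultures, libraries were made with the SMARTer stranded total RNA pico kit, and the authors trimmed reads (Trim Galore), aligned them to mm10 (HISAT2) and counted them per gene with featureCounts. The deposited counts, for 24421 symbols and 12 libraries, were used as whole numbers. The annotation and strand setting of the counting are not given in the sources used here. A normalized signal, in the other deposited table, equalled the counts divided by DESeq2 size factors.

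Counts were fitted in edgeR 4.0.16 (R 4.3.3) with 1 term per group over all 12 libraries, TMM factors and filterByExpr defaults, which kept 11468 genes. Quasi-likelihood tests were two-sided, with Benjamini-Hochberg adjustment over all genes and a threshold of 0.05. CPM are TMM-scaled, and log2 changes within mice used a prior count of 2. On simulated counts with 200 of 11468 genes changed and no difference between mice, the fit called 66% of 2-fold and 14% of 1.5-fold changes. It also called 4 unchanged genes among 84 calls. In the data 31.3% of genes were called, so the cut on unadjusted p differed and these shares do not carry over. Alternatives were DESeq2 1.42.0, its size factors, other filters, the mouse as a replicate block, 1 surrogate variable (sva 3.50.0), the Ova libraries alone, removal of Rn45s, each library and each mouse left out (9 fits), a threshold of 0.01 and limma 3.58.1 on log2(signal + 1). The fit without the DMSO library of mouse A and with the block was chosen after seeing the data. The labels name the mouse of each library, which pairs them. Same-mouse libraries deviated together from their group means on average (mean correlation 0.25 over 18 pairs). The mean of -0.12 over 36 other pairs largely follows from that value, since deviations within a group sum to 0. Between the Ova arms the same-mouse values were only -0.05, -0.06 and 0.29 for mice A, B and C.

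Named genes were a panel of 12, the 15 largest rises and falls, and up to 3 called members of each list in each direction, provided that counts averaged 50 or more and all 3 mice moved alike; Fc receptor and BET genes not called could also be named, and not every gene so taken is reported here. Rn45s and Lars2 were chosen after their values were seen. The comparison, the panel and the gene lists were chosen with earlier results of these data known. Positions come from GENCODE vM21 (GRCm38/mm10), to which 98.4% of symbols were matched, and the 4 promoters shown from RefSeq (all 4 matched by symbol). A count of a gene is a sample of RNA molecules amplified by PCR, so depth limits the low genes most. The main fit has no mouse term, so its p-values rest on the spread of libraries within the 4 groups. That spread mixes differences between the 3 mice with differences between libraries of the same mouse, which were treated as independent. With 3 mice, little can be said of other animals.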

Additional observations from a re-analysis of the deposited data

How the results depend on the processing

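The count of 3593 genes called ranged from 2681 to 3378 when 1 Ova library was left out, and from 1310 to 3858 when 1 mouse was left out (1963 rises: 715 to 2044; 1630 falls: 595 to 1814). Mice B and C moved it most, with 1310 genes called without mouse B and 2031 without mouse C. At an adjusted p under 0.01 there were 2129 calls, 1172 higher and 957 lower. The Ova libraries fitted alone with the replicate block gave 1178 rises. With the replicate block in the fit of 12 libraries 4387 genes were called, and in DESeq2 3598, or 4248 with the block. Removing Rn45s gave 3538, 1 surrogate variable 4577, and leaving out the DMSO library of mouse A with the block 3995. In IC 3987 genes were called, from 3722 to 4469 when 1 Ova library was left out of the shared fit, from 1769 to 3852 when 1 mouse was left out, and 2496 at 0.01; no IC library was left out alone. The test of the difference between Ova and IC called no gene in edgeR under any alternative run, and DESeq2 was not run on it.

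Of 135 genes named in the text and called, 117 were called in all 9 fits that left out a library or a mouse. Among all 3593 calls only 1168 were. Most named genes were chosen for large changes, higher counts and agreement of the mice, so their share does not stand for calls in general. The replicate block ended the calls of Rn45s (-3.90, adjusted p = 0.28) and Lars2 (-4.69, 0.296), called Ccnt1 and Fcgr1, and changed no other call of a named gene. Log2 changes that turned sign were those of Rn45s and Lars2 without the DMSO library of mouse A (0.24 and 0.49), the same with the block (0.28 and 0.36) and without mouse A (0.43 and 0.61), of Brd3 without mouse A (0.046), and of Fcer1g without mouse A (-0.031) and without the DMSO library of mouse A with the block (-0.10). Over the 9 fits the values ran from -6.29 to 0.43 for Rn45s, -7.70 to 0.61 for Lars2, -0.53 to 0.046 for Brd3 and -0.031 to 0.33 for Fcer1g. The cause was not tested. The 1768133 counts outside Rn45s in the DMSO library of mouse A limit what can be said of low genes there, including those at several CPM.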

Other observations

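Genes of the cell's shape and surface moved in both directions. Of 62 genes of actin remodelling 9 rose with iBET (14.5%, against 17.1% of all genes) and 12 fell (19.4%, against 14.2%). The median log2 change was 0.04, against 0.02 over all genes, so the list as a whole lay near all genes. Without the DMSO library of mouse A 4 rose and 12 fell. Vcl, which codes for the adhesion protein vinculin, was at 64.2, 62.7 and 73.4 CPM in mice A, B and C with DMSO and at 174, 148 and 143 with iBET. It rose without overlap of the groups (log2 1.21 ± 0.11 (SE), edgeR adjusted p = 1.01e-05). The formin Fmnl1 was at 258, 316 and 343 with DMSO and at 113, 101 and 127 with iBET, and fell (log2 -1.43 ± 0.13 (SE), edgeR adjusted p = 8.14e-06). Myo1g, a membrane-bound myosin, fell 2.14-fold. Of 14 genes of MHC class II and costimulation 5 fell (35.7%) and 2 rose (14.3%). March1, the ubiquitin ligase that removes MHC class II from the surface, fell 4.303-fold, and Cd274 (PD-L1) fell 2.31-fold. Clec4d, a lectin that senses mycobacterial lipids, fell 2.197-fold.

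In the Bcl-2 family 5 of 19 rose (26.3%, against 17.1% of all genes) and 4 fell (21.1%, against 14.2%). Pmaip1, which codes for the death-promoting protein Noxa, was at 11.3, 11.7 and 13.1 CPM with DMSO and at 28.3, 28.6 and 34.97 with iBET (log2 1.33 ± 0.15 (SE), edgeR adjusted p = 4.57e-05). The survival gene Bcl2l1 fell 1.602-fold and the death effector Bak1 1.61-fold. In lipid metabolism Acly, which makes cytosolic acetyl-CoA, rose 1.71-fold, and Plin2, a coat protein of lipid droplets, fell 1.701-fold. Dkc1, which modifies ribosomal RNA, fell 2.16-fold. Of 34 genes of ribosome biogenesis 7 fell (20.6%) and 4 rose (11.8%), and 2 rose without the DMSO library of mouse A. Every gene named in these paragraphs was called in all 9 fits that left out a library or a mouse.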
